A study of Mus musculus with 12 samples.

Results

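The data described here are the transcript levels of 10 genes of the TNF superfamily in the mouse colon, comprising 7 ligands (Tnf, Ltb, Tnfsf14, Tnfsf15, Tnfsf10, Tnfsf11 and Tnfsf13b) and 3 receptors (Tnfrsf1a, Tnfrsf1b and Tnfrsf11b). They were taken by gene symbol from a deposited table of 54532 genes, and 10 of the 10 were among the 24102 genes that passed the filter on low values. The table holds RNA-seq read counts of colon tissue from 12 libraries in 4 groups of 3. Tmem173fl/fl mice, labelled WT, carry a floxed Tmem173 gene, which encodes STING, and no Cre. Tmem173iΔmye mice, labelled CRE, are Tmem173fl/fl mice that also carry Lyz2-Cre ert2, a tamoxifen-inducible Cre recombinase driven by the Lyz2 gene and active in myeloid cells, so that other cells of the colon keep STING. According to the methods of the study, mice of both genotypes were on the C57BL/6N background and had 5 tamoxifen injections. The treated groups drank 2.5% to 3% dextran sodium sulfate (DSS), which injures the colonic epithelium, for 7 days from an age of 6 to 8 weeks, followed by 1 day of water, and the untreated groups drank water. The groups are called untreated and colitic below. The colitic Tmem173iΔmye libraries carry the replicate numbers 1, 2 and 5 and the other groups the numbers 1, 2 and 3. The labels do not say more on the origin of each library, so the p-values measure the spread between these libraries.

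TNF superfamily ligands are mostly made as membrane proteins that act as trimers, at the cell surface or after shedding, on receptors of a matching superfamily. The receptors recruit TRAF adaptors to activate NF-κB and, where they carry a death domain, can also trigger cell death. TNF itself is a target of antibody therapy in inflammatory bowel disease. Lymphotoxin organises lymphoid tissue of the gut wall, and LIGHT is a second ligand of its receptor. TRAIL is a death ligand, and RANKL is restrained by osteoprotegerin, a soluble decoy receptor.

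Counts per library summed to between 13823237 and 18718915. On the first principal component of all genes (38.95%), colitic Tmem173iΔmye replicate 5 lay at -32. The other colitic libraries lay there between 15.55 and 119.8 and the untreated ones between -72.95 and -47.55. On the second component (10.29%) it lay at -113.9 and the other 11 libraries between -26.5 and 31.6. Colitic Tmem173iΔmye replicate 5 and replicate 3 of both untreated groups had the transcript pattern of female mice. Summed pancreas markers ran from 44.6 to 7751 RPKM over the libraries. Tmem173 was measured at 6.23 to 10.7 RPKM in untreated Tmem173fl/fl, 6.35 to 9.27 in untreated Tmem173iΔmye, 16.4 to 19.1 in colitic Tmem173fl/fl and 10.3 to 20.8 in colitic Tmem173iΔmye colon, and it was called (an adjusted p below 0.05 and a log2 fold change of at least 1 in size, edgeR) in neither genotype comparison. Colitic Tmem173iΔmye replicate 1, at 20.8 RPKM, lay above each colitic Tmem173fl/fl library. These whole-tissue values do not check the labels. By design, cells outside the myeloid lineage keep the gene, and their part in the level was not tested. The paper reports a smaller rise of Tmem173 transcript in inflamed whole colon after the myeloid knockout. Lyz2, the locus that drives Cre, was at 114 to 210.5 RPKM in untreated Tmem173fl/fl and 58.0 to 87.2 RPKM in untreated Tmem173iΔmye colon, without overlap (log2 fold change -1.01, SE 0.23, unadjusted p = 7.54e-04, adjusted p = 1, edgeR), and overlapped between the colitic genotypes.

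The promoter windows of the members that were called in any comparison are shown first. RefSeq (GRCm38.p6) gave windows from 250 bases before to 50 bases after the start site for 9 of the 10 members, in 10 entries. Of the 6 members that were called in any comparison, 5 had an entry, at chr17:35201958-35202257 (minus strand) for Tnf, chr14:78307994-78308293 (minus strand) for Tnfsf11, chr17:57194132-57194431 (minus strand) for Tnfsf14, chr3:27316827-27317126 (plus strand) for Tnfsf10 and chr6:125349473-125349772 (plus strand) for Tnfrsf1a. They are printed 5′ to 3′ on the strand of the gene, with capitals at matches to TATAAA or GGGCGG on either strand. The Tnfrsf1a window lies wholly inside the counted gene, which starts at base 125349362, so it does not precede that start.
Tnf: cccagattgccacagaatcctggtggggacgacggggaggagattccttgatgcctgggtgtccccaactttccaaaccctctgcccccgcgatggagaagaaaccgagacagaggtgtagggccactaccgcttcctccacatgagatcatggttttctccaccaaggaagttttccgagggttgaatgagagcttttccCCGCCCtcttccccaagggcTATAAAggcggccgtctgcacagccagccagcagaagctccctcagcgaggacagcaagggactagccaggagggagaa
Tnfsf11: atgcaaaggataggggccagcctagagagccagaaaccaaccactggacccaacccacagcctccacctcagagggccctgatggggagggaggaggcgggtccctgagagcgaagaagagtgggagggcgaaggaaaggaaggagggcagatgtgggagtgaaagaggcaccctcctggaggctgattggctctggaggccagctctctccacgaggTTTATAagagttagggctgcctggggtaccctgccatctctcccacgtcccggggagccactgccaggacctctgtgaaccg
Tnfsf14: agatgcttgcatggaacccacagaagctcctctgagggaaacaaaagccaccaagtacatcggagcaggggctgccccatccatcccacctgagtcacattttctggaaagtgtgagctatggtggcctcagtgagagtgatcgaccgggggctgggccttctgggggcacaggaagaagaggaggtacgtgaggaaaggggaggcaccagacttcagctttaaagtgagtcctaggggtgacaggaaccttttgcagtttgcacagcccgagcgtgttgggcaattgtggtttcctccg
Tnfsf10: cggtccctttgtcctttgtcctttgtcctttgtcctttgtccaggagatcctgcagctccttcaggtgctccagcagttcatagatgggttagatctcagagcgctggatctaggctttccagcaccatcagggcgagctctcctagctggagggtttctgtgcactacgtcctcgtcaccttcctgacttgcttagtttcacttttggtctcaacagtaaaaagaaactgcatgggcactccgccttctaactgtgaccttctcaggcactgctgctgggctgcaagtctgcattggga
Tnfrsf1a: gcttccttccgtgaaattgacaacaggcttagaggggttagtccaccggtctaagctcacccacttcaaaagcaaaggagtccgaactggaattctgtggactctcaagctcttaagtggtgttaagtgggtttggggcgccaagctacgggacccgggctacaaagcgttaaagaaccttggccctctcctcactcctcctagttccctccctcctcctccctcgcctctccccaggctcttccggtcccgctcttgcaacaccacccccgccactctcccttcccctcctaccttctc
The Tnf window held TATAAA from position -29 relative to the start site and the reverse complement of GGGCGG from position -49. The Tnfsf11 window held the reverse complement of TATAAA from position -32. The windows of Tnfsf14, Tnfsf10 and Tnfrsf1a matched none of the motifs searched, which were the TATA box (TATAAA), the GC box (GGGCGG), a core of the interferon-stimulated response element or ISRE (GAAANNGAAA) and the κB consensus, each on both strands. Of the windows of members that were not called, that of Ltb held the κB consensus from position -87. The ISRE core was found in the Tnfsf13b window at chr8:10006383-10006682 (position -16) and as its reverse complement in Tnfrsf1b (position -10). The other Tnfsf13b window, at chr8:10006217-10006516, matched none of the motifs searched. The Tnfrsf1b window also held the reverse complement of GGGCGG from positions -67 and -57. Among 32851 windows of the same length, TATAAA was found in 13.6%, GGGCGG in 35.7%, the ISRE core in 3.44% and the κB consensus in 8.46%. No matches overlapped each other in the windows of the members. A match is a description of the letters and not evidence of a bound site.

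Tnfrsf1a was the most abundant of the 10 transcripts in each of the 4 groups, followed in mean level by Tnfsf10 in the untreated groups, with ranges of Tnfsf10 and Tnfrsf1b that overlapped in Tmem173iΔmye, and by Tnfrsf1b in the colitic groups. Levels between genes are compared per length, as RPKM (counts scaled by gene length in kilobases and by library total after TMM). In untreated Tmem173fl/fl colon, Tnfrsf1a was at 41.2 ± 1.53 RPKM (SD, n = 3), Tnfsf10 at 27.9 ± 3.29 and Tnfrsf1b at 18.8 ± 1.30, and the ranges of these 3 genes did not overlap. Ltb followed at 6.45 ± 2.36 RPKM. Tnf at 2.19 ± 0.364 and Tnfsf13b at 2.04 ± 0.0112 RPKM had overlapping ranges, as had neighbours in the order from Tnfrsf11b through Tnfsf15 and Tnfsf11 to Tnfsf14, whose means ran from 1.05 down to 0.389 RPKM. In colitic Tmem173fl/fl colon the order was Tnfrsf1a, Tnfrsf1b, Ltb, Tnfsf11, Tnfsf10, Tnf, Tnfrsf11b, Tnfsf13b, Tnfsf14 and Tnfsf15. Tnfsf11 had moved up from rank 9 to rank 4 and Tnfsf10 down from rank 2 to rank 5, and from Ltb down to Tnfrsf11b neighbouring ranges overlapped, while those of Tnfrsf11b and Tnfsf13b did not. In colitic Tmem173iΔmye colon Tnfsf10 was at rank 3 with 15.1 ± 6.09 RPKM, behind the receptors, and Tnf at rank 4 with 8.62 ± 1.08 RPKM.

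**Figure D1:**
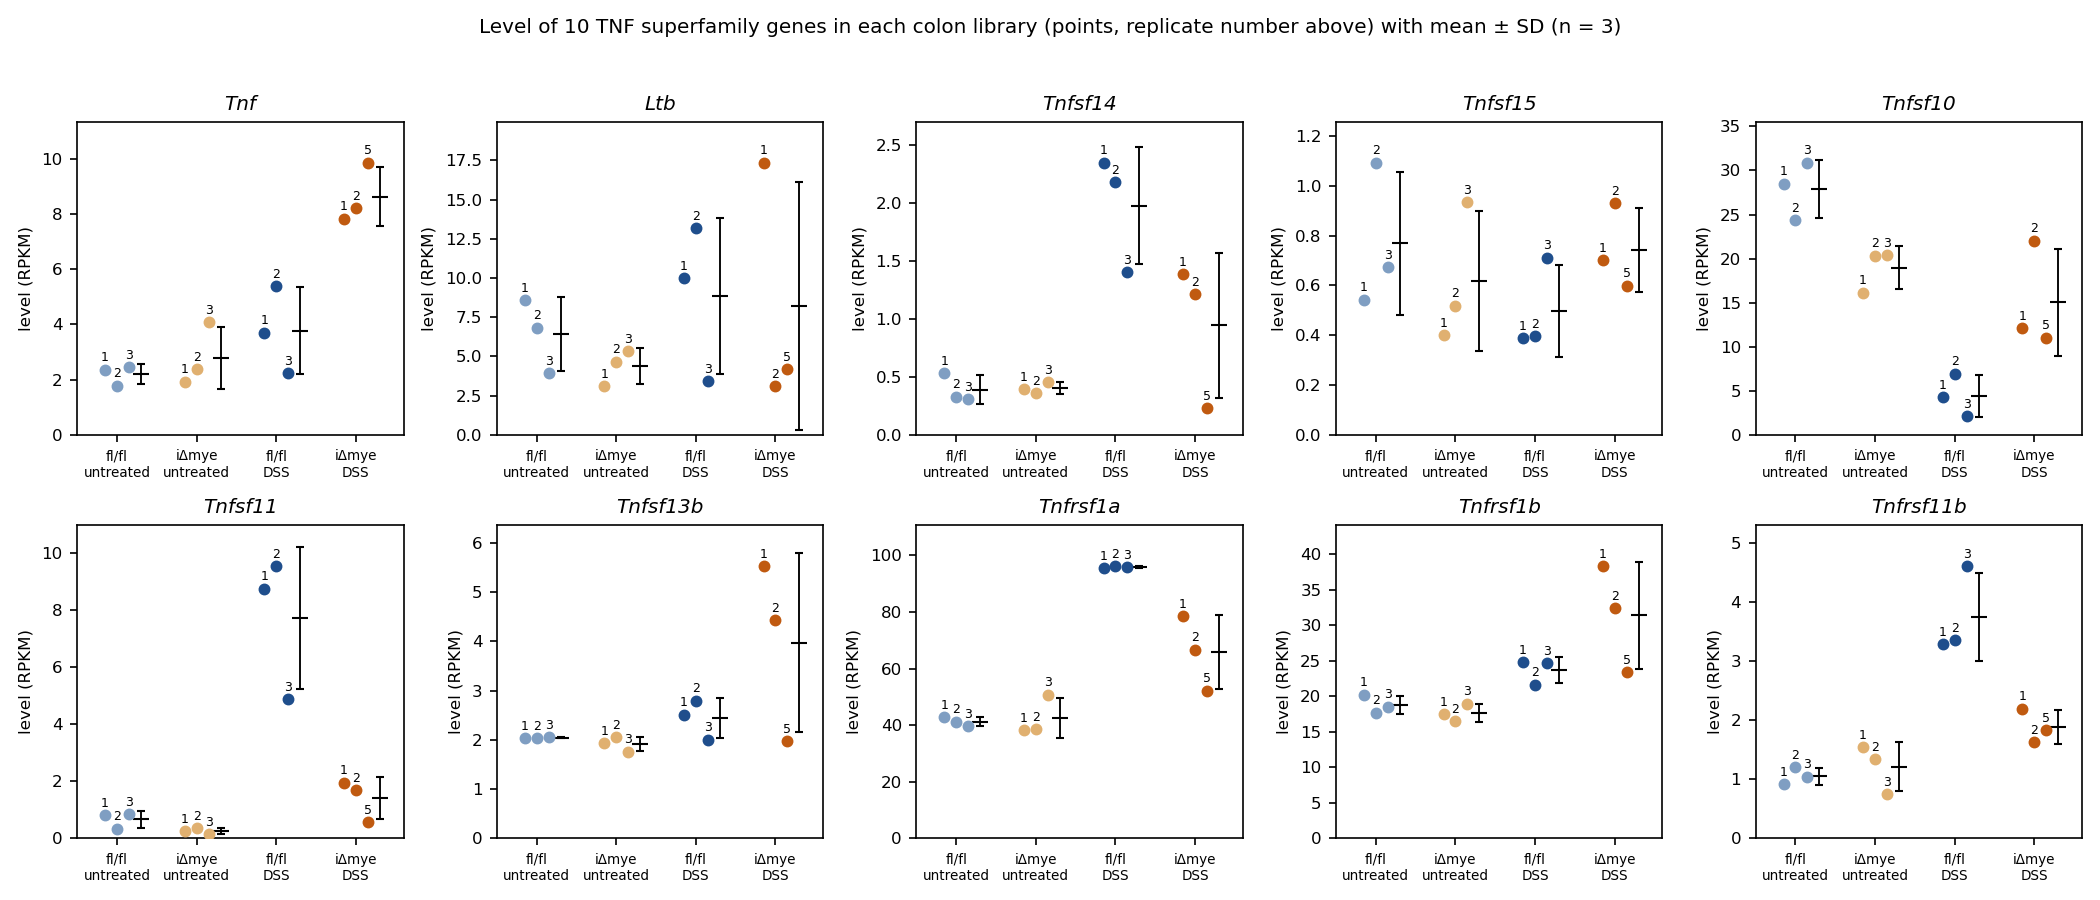
Level of each of the 10 genes (y axis, RPKM, from 0) in each of the 12 colon libraries, by group on the x axis, with replicate numbers above the points and bars for the mean ± SD (n = 3). Tnf was at 7.82 to 9.85 RPKM in colitic Tmem173iΔmye colon, above the other 9 libraries, whereas Tnfsf11 was at 4.87 to 9.52 RPKM in colitic Tmem173fl/fl colon, above the other 9.

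The comparisons and their interaction were tested. In Tmem173fl/fl mice, DSS was accompanied by a rise of Tnfsf11, Tnfsf14, Tnfrsf11b and Tnfrsf1a and a fall of Tnfsf10. Here 14.9% of all tested genes were called higher and 7.61% lower, where a gene was called if edgeR's quasi-likelihood test gave it an adjusted p below 0.05 and a log2 fold change of 1 or more in size. The members' counts were 4 and 1 of 10. The colitic and untreated libraries did not overlap for 6 of the 10 members and for 49.3% of all tested genes. In Tmem173iΔmye mice, DSS was accompanied by a rise of Tnf (1 of 10), with 1.48% of all genes higher and 0.597% lower. These 501 genes became 51 to 1469 with 1 library left out, the most without colitic replicate 5. The libraries did not overlap for 5 members and for 21.5% of all genes. The median log2 fold change of the members was 0.70 in Tmem173fl/fl mice, against 0.03 over all tested genes, and 0.86 in Tmem173iΔmye mice, against 0.02.

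Between the genotypes without DSS, 0 members and 0% of all genes were called by edgeR, with 720 genes and 2 members, Tnfsf10 and Tnfsf11, at an unadjusted p under 0.05. With the replicate number as a block edgeR called 94 genes, and with no filter on low values it called 68. DESeq2 called 3 genes, and limma called 3 with 0.1 added to FPKM and 0 with 1 added. No member was among these calls. The libraries did not overlap for 1 member, Tnfsf10, and for 7.35% of all genes. Between the colitic genotypes, Tnfsf11 was lower in Tmem173iΔmye mice (1 of 10), where 0.822% of all genes were called higher and 1.99% lower, and the libraries did not overlap for 6 members and for 26.8% of all genes. The 678 genes called there became 27 without colitic Tmem173fl/fl replicate 1 and 1593 without colitic Tmem173iΔmye replicate 1, the extremes with 1 library left out. In the interaction, which asks whether the DSS effect differed between the genotypes, Tnfsf10 was called higher (1 of 10), with 0.934% of all genes called higher and 1.61% lower. These 614 genes became 267 to 1728 with 1 library left out. The comparisons share groups, so their values are given side by side and are not independent of each other. The colon holds many cell types, and fewer cells of a type cannot be told apart from less RNA per cell.

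**Figure D2:**
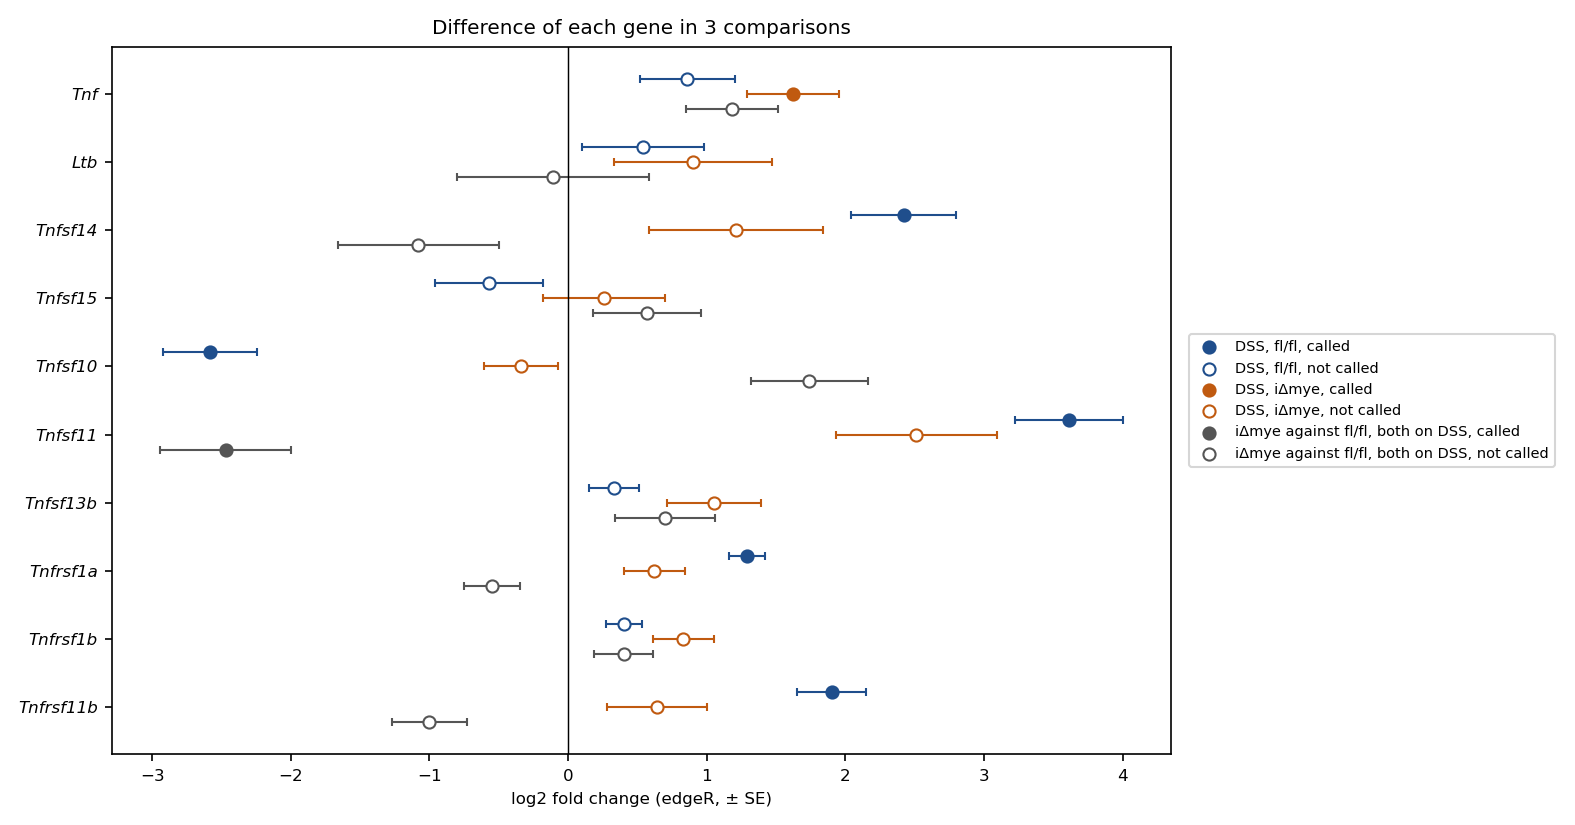
Log2 fold change (x axis, edgeR, bars ± SE) of each gene for DSS in Tmem173fl/fl mice, DSS in Tmem173iΔmye mice and Tmem173iΔmye against Tmem173fl/fl mice with both on DSS, with filled points where the gene was called. Tnfsf10 was at -2.58 for DSS in Tmem173fl/fl and -0.34 in Tmem173iΔmye mice, and Tnf at 0.86 and 1.62.

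Among the ligands, Tnf (ENSMUSG00000024401, GRCm38 chr17:35199381-35202007, minus strand), the founding cytokine of the family, was higher in the colitic Tmem173iΔmye libraries than in any other. It was at 2.36, 1.78 and 2.45 RPKM in untreated Tmem173fl/fl replicates 1, 2 and 3, and at 1.93, 2.37 and 4.07 RPKM in the untreated Tmem173iΔmye replicates. In colitis it was at 3.70, 5.37 and 2.24 RPKM in Tmem173fl/fl replicates 1, 2 and 3, and at 7.82, 8.20 and 9.85 RPKM in Tmem173iΔmye replicates 1, 2 and 5. The colitic Tmem173fl/fl libraries thus overlapped the untreated ones through replicate 3, and the colitic Tmem173iΔmye libraries overlapped no other group. The log2 fold change for DSS was 0.86 (SE 0.34, adjusted p = 0.0743, edgeR) in Tmem173fl/fl mice and 1.62 (SE 0.33, adjusted p = 0.036, edgeR) in Tmem173iΔmye mice. Without colitic Tmem173fl/fl replicate 3 the value in Tmem173fl/fl mice was 1.10 with an adjusted p of 0.0148 in edgeR, which passed the threshold. The call in Tmem173iΔmye mice was lost without untreated replicate 1, 2 or 3 (edgeR adjusted p = 0.213, 0.201 and 0.0713) and without colitic replicate 1 or 2 (0.0671 and 0.0751), with log2 fold changes of 1.42 to 2.02, and was kept without colitic replicate 5 (1.54, adjusted p = 0.0211). Between the colitic genotypes Tnf differed by 1.18 on the log2 scale (SE 0.33, adjusted p = 0.0969 in edgeR, with 0.00848 in DESeq2), higher in 3 of 3 Tmem173iΔmye libraries. The paper reports the other direction from quantitative PCR, with a diminished rise of Tnf in Tmem173iΔmye mice in acute colitis. The interaction for Tnf was 0.84 (SE 0.48, adjusted p = 0.38, edgeR), so a difference in the DSS effect was not shown.

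Ltb (ENSMUSG00000024399, chr17:35194439-35196320, plus strand) encodes lymphotoxin beta, which forms a membrane heterotrimer with lymphotoxin alpha. The gene faces Tnf tail to tail across 3060 bases, and Lta, the lymphotoxin alpha gene, lies 1157 bases beyond the start of Tnf. Ltb was at 8.59, 6.83 and 3.92 RPKM in untreated Tmem173fl/fl colon and at 3.12, 4.66 and 5.35 RPKM in untreated Tmem173iΔmye colon. The colitic values were 9.97, 13.2 and 3.41 RPKM in Tmem173fl/fl replicates 1, 2 and 3, and at 17.3, 3.12 and 4.20 RPKM in Tmem173iΔmye replicates 1, 2 and 5. Each pair of groups overlapped, and in each colitic group 1 or 2 libraries were high and the rest were at or below 4.20 RPKM. The log2 fold change for DSS was 0.54 (SE 0.44, adjusted p = 0.378, edgeR) in Tmem173fl/fl and 0.90 (SE 0.57, adjusted p = 0.503, edgeR) in Tmem173iΔmye mice. The summed level of 8 B and plasma cell markers was highest in the 2 libraries in which Ltb was highest, with 510 RPKM in colitic Tmem173iΔmye replicate 1 and 587 RPKM in colitic Tmem173fl/fl replicate 2, against 150 to 389 RPKM in the other 10, of which colitic Tmem173fl/fl replicate 1, with the third highest Ltb, had the highest sum. Untreated Tmem173fl/fl replicate 3 had a sum of 334 RPKM with Ltb at 3.92 RPKM. Over the groups this sum ran from 242 to 354 RPKM in untreated Tmem173fl/fl, 256 to 292 in untreated Tmem173iΔmye, 277 to 587 in colitic Tmem173fl/fl and 150 to 510 in colitic Tmem173iΔmye libraries. Most of this sum was Jchain and Sdc1, at 221.1 and 57.2 RPKM in untreated and 257 and 119.4 RPKM in colitic Tmem173fl/fl colon. For DSS in Tmem173fl/fl mice Sdc1 was called higher (1.13 on the log2 scale) and Cr2 lower (-1.45). None of the 8 markers had a group mean of 0. Other sums were also highest in the 3 libraries with the highest Ltb, colitic Tmem173iΔmye replicate 1 and colitic Tmem173fl/fl replicates 2 and 1. In that order the dendritic cell sums were 31.6, 21.8 and 17.6 RPKM and the lymphoid follicle sums 168.9, 461.6 and 283.7 RPKM. The pancreas sums were 7751, 3496 and 6969 RPKM. The part of B cells or of these other cells in the level of Ltb was not tested. Lta was at 0.874 ± 0.398 RPKM in untreated and 0.589 ± 0.559 RPKM in colitic Tmem173fl/fl colon (SD, n = 3) and was not called in any comparison.

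Tnfsf14 (ENSMUSG00000005824, chr17:57189492-57194177, minus strand) encodes LIGHT, a second ligand of the lymphotoxin beta receptor. It was at 0.533, 0.330 and 0.305 RPKM in untreated Tmem173fl/fl and at 0.394, 0.357 and 0.456 RPKM in untreated Tmem173iΔmye colon. In colitis it was at 2.35, 2.18 and 1.40 RPKM in Tmem173fl/fl replicates 1, 2 and 3 and at 1.39, 1.21 and 0.230 RPKM in Tmem173iΔmye replicates 1, 2 and 5. The colitic Tmem173fl/fl libraries lay above the other 9, while colitic Tmem173iΔmye replicate 5 was the lowest library of all, at 7 counts. The rise in Tmem173fl/fl mice was 2.42 on the log2 scale (SE 0.38, adjusted p = 8.59e-04, edgeR). In Tmem173iΔmye mice the value was 1.21 (SE 0.63, adjusted p = 0.396, edgeR), and without replicate 5 it was 1.71 (adjusted p = 0.048). The colitic genotypes differed by -1.08 (SE 0.58, adjusted p = 0.337, edgeR). Its receptors Ltbr and Tnfrsf14 were not called in any comparison, with Ltbr at 38.9 ± 4.54 RPKM in untreated and 43.1 ± 4.09 RPKM in colitic Tmem173fl/fl colon (SD, n = 3).

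Tnfsf15 (ENSMUSG00000050395, chr4:63727084-63745113, minus strand), which encodes TL1A, a ligand with genetic links to inflammatory bowel disease, was low throughout. Its 12 libraries lay between 0.388 RPKM (colitic Tmem173fl/fl replicate 1) and 1.09 RPKM (untreated Tmem173fl/fl replicate 2), with 22 to 54 counts, and each pair of groups overlapped. The log2 fold change was -0.57 (SE 0.39) for DSS in Tmem173fl/fl mice and 0.26 (SE 0.44) in Tmem173iΔmye mice, and neither passed the test.

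Tnfsf10 (ENSMUSG00000039304, chr3:27317028-27342427, plus strand), which encodes the death ligand TRAIL, fell in colitic Tmem173fl/fl colon and was the member whose DSS effect differed between the genotypes by the test. It was at 28.5, 24.4 and 30.9 RPKM in untreated Tmem173fl/fl and at 16.1, 20.3 and 20.4 RPKM in untreated Tmem173iΔmye colon. The colitic values were 4.26, 6.93 and 2.15 RPKM in Tmem173fl/fl replicates 1, 2 and 3 and at 12.1, 22.1 and 11.0 RPKM in Tmem173iΔmye replicates 1, 2 and 5. Untreated Tmem173fl/fl libraries were the highest and colitic ones the lowest of the 12, with the libraries of both Tmem173iΔmye groups between them and overlapping each other. The fall in Tmem173fl/fl mice was 5.96-fold, a log2 fold change of -2.58 (SE 0.34, adjusted p = 3.08e-04, edgeR). In Tmem173iΔmye mice the value was -0.34 (SE 0.27, adjusted p = 0.607, edgeR). The interaction was 2.31 (SE 0.49, adjusted p = 0.0244, edgeR). It no longer passed without untreated Tmem173fl/fl replicate 1 or 3 (adjusted p = 0.0581 and 0.0625 in edgeR), without untreated Tmem173iΔmye replicate 1, 2 or 3 (0.0676, 0.0546 and 0.0598), without colitic Tmem173fl/fl replicate 1 (0.075) or without colitic Tmem173iΔmye replicate 2 (0.0505), with values of 1.93 to 2.37, and was 2.47 (adjusted p = 0.0179) without colitic Tmem173iΔmye replicate 5. Without DSS the genotypes differed by -0.55 (SE 0.16, unadjusted p = 0.00353, adjusted p = 1, edgeR), lower in 3 of 3 Tmem173iΔmye libraries. In colitis they differed by 1.74 (SE 0.42, adjusted p = 0.0656 in edgeR, with 0.00104 in DESeq2), higher in 3 of 3 Tmem173iΔmye libraries.

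The summed level of 7 epithelial markers was lowest in the group in which Tnfsf10 was lowest. It was 4532 to 5661 RPKM in untreated Tmem173fl/fl, 4889 to 5645 RPKM in untreated Tmem173iΔmye, 1585 to 2781 RPKM in colitic Tmem173fl/fl and 3639 to 4332 RPKM in colitic Tmem173iΔmye colon. For DSS in Tmem173fl/fl mice 5 of the 7 markers were called lower, and between the colitic genotypes 0 of 7 were called. No marker of the list had a group mean of 0. Krt8 was the largest part of the sum, at 1083 RPKM in colitic Tmem173fl/fl and 1901 RPKM in colitic Tmem173iΔmye colon. Between the colitic genotypes 6 of the 7 log2 fold changes were above 0 and 1 was below. The mean of Cdx2 was lower in colitic Tmem173iΔmye colon (50.9 against 55.8 RPKM). Krt18, Krt20 and Cdx2 overlapped between the colitic genotypes. Between the untreated genotypes the sums overlapped while Tnfsf10 did not, and between the colitic genotypes neither overlapped and both were higher in Tmem173iΔmye mice. For DSS in Tmem173iΔmye mice the sums did not overlap and Tnfsf10 did, with lower means in colitis for both. Replicate 2 was the highest of the colitic Tmem173iΔmye libraries in both measures, while replicate 3 of colitic Tmem173fl/fl had the highest epithelial sum and the lowest Tnfsf10 of its group. The part of epithelial loss in the Tnfsf10 level was not tested. The mouse TRAIL receptor gene Tnfrsf10b was not called in any comparison, with a log2 fold change of -0.38 (SE 0.22) for DSS in Tmem173fl/fl mice.

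Tnfsf11 (ENSMUSG00000022015, chr14:78277445-78308043, minus strand) encodes RANKL, the ligand needed for osteoclasts and for M cells of the gut epithelium, and had the largest fold change among the 10 members in Tmem173fl/fl mice. It was at 0.813, 0.333 and 0.840 RPKM in untreated Tmem173fl/fl and at 0.244, 0.348 and 0.134 RPKM in untreated Tmem173iΔmye colon, from 5 to 30 counts a library. In colitis it was at 8.74, 9.52 and 4.87 RPKM in Tmem173fl/fl replicates 1, 2 and 3 and at 1.94, 1.70 and 0.570 RPKM in Tmem173iΔmye replicates 1, 2 and 5. The colitic Tmem173fl/fl libraries lay above the other 9, and the colitic Tmem173iΔmye libraries lay above the untreated ones of their genotype. The rise in Tmem173fl/fl mice was 12.2-fold, a log2 fold change of 3.61 (SE 0.39, adjusted p = 7.6e-05, edgeR). In Tmem173iΔmye mice the value was 2.51 (SE 0.58, adjusted p = 0.0563 in edgeR, with 0.00207 in DESeq2) and, without replicate 5, 2.92 (adjusted p = 0.00439, edgeR). This value was called in 7 of 18 alternatives. Between the colitic genotypes Tnfsf11 was lower in Tmem173iΔmye mice by 5.54-fold, a log2 fold change of -2.47 (SE 0.47, adjusted p = 0.0329, edgeR). This call was lost without colitic Tmem173fl/fl replicate 1, 2 or 3 (edgeR adjusted p = 0.135, 0.1 and 0.0554) or colitic Tmem173iΔmye replicate 2 (0.104), at log2 fold changes of -2.28 to -2.70, and it was -2.09 (adjusted p = 0.0317) without replicate 5. It was also lost with the level of pancreas markers as a covariate, at -2.10 (adjusted p = 0.0851), an alternative chosen after the data were seen. The value between the untreated genotypes was -1.43, with overlapping libraries (SE 0.53, unadjusted p = 0.0185, adjusted p = 1, edgeR), and the interaction was -1.03 (SE 0.72, adjusted p = 0.49, edgeR).

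The summed level of 7 fibroblast markers was highest in the group in which Tnfsf11 was highest, with 153 to 181 RPKM in untreated Tmem173fl/fl, 153 to 187 in untreated Tmem173iΔmye, 1040 to 1298 in colitic Tmem173fl/fl and 308 to 432 in colitic Tmem173iΔmye libraries. All 7 were called higher for DSS in Tmem173fl/fl mice, 1 of 7 for DSS in Tmem173iΔmye mice, and between the colitic genotypes 6 of 7 were called lower in Tmem173iΔmye mice. Between the untreated genotypes both the sums and Tnfsf11 overlapped. Within the colitic Tmem173iΔmye group replicate 1 was highest in both measures, and replicate 5 had a higher sum than replicate 2 (399.5 against 308 RPKM) and less Tnfsf11 (0.570 against 1.70 RPKM). None had a group mean of 0. Other marker sums were also higher in colitic Tmem173fl/fl than in colitic Tmem173iΔmye libraries without overlap, with 124.6 to 180.1 against 42.5 to 87.5 RPKM for endothelial, 565 to 930 against 236 to 326 RPKM for neutrophil, 687 to 919.5 against 454 to 588 RPKM for monocyte and macrophage and 188.5 to 403 against 29.7 to 35.6 RPKM for red blood cell markers. The part of fibroblasts or of these other cells in the Tnfsf11 level was not tested.

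**Figure D3:**
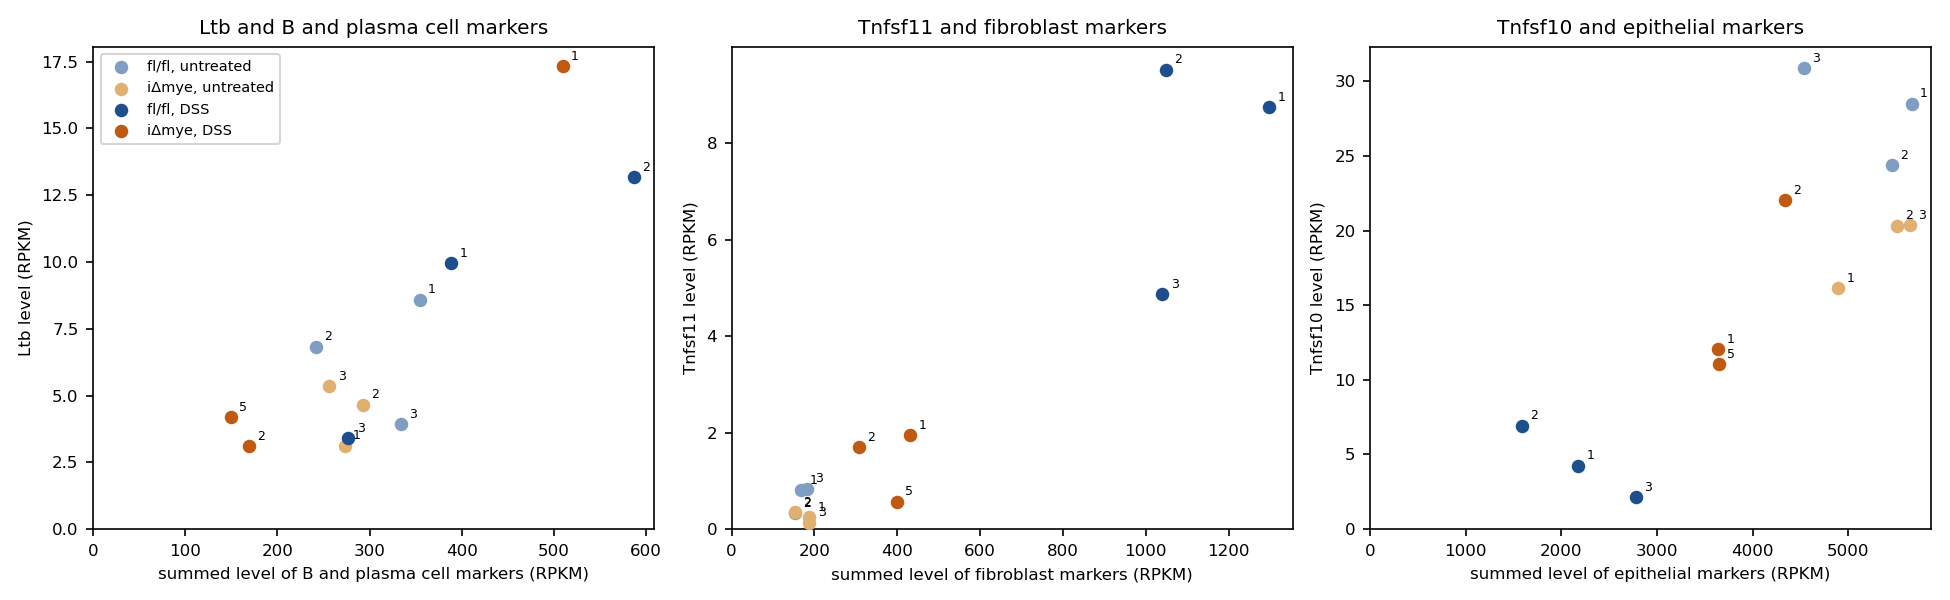
Level of Ltb, Tnfsf11 and Tnfsf10 (y axes, RPKM) against the summed level of B and plasma cell, fibroblast and epithelial markers (x axes, RPKM), with 1 point per library, coloured by group and numbered by replicate. The fibroblast sum and Tnfsf11 were both highest in the 3 colitic Tmem173fl/fl libraries, at 1040 to 1298 RPKM and 4.87 to 9.52 RPKM.

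Tnfrsf11b (ENSMUSG00000063727, chr15:54250619-54278484, minus strand) encodes osteoprotegerin, the soluble decoy receptor that binds RANKL. It was at 0.914, 1.201 and 1.04 RPKM in untreated Tmem173fl/fl and at 1.55, 1.34 and 0.746 RPKM in untreated Tmem173iΔmye colon. The colitic values were 3.29, 3.36 and 4.61 RPKM in Tmem173fl/fl replicates 1, 2 and 3 and at 2.20, 1.63 and 1.83 RPKM in Tmem173iΔmye replicates 1, 2 and 5. Both colitic groups lay above their untreated group and did not overlap each other. The log2 fold change was 1.90 (SE 0.25, adjusted p = 2.50e-04, edgeR) for DSS in Tmem173fl/fl mice, a rise of 3.72-fold, and 0.64 (SE 0.36, adjusted p = 0.452, edgeR) in Tmem173iΔmye mice. The colitic genotypes differed by -1.0 (SE 0.27, adjusted p = 0.0884, edgeR) and the interaction was -1.19 (SE 0.42, adjusted p = 0.153 in edgeR, with 0.0491 in DESeq2).

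The transcript ratio of the decoy to its ligand was lower in colitis. The log2 ratio of Tnfrsf11b to Tnfsf11 (FPKM with 0.1 added to each) was 0.67 ± 0.79 in untreated Tmem173fl/fl, 1.93 ± 0.30 in untreated Tmem173iΔmye, -0.98 ± 0.78 in colitic Tmem173fl/fl and 0.55 ± 0.85 in colitic Tmem173iΔmye colon (SD, n = 3). Tnfsf11 had only 5 to 30 counts a library in untreated colon, from 0.134 RPKM, so the ratios there are imprecise and depend on the 0.1 added. Within genotypes, colitic libraries were lower by a mean of -1.51 (exact two-sided permutation test within genotype, p = 0.005, the smallest that 400 arrangements can give), with 6 colitic and 6 untreated libraries. The colitic genotypes differed by 1.53 with an exact p of 0.1, the smallest that 3 libraries against 3 allow. In Tmem173fl/fl mice Tnfrsf11a, which encodes RANK, the signalling receptor of RANKL, moved the other way from its ligand with DSS. It was at 31.8, 29.8 and 34.2 RPKM in untreated and 11.96, 8.74 and 11.6 RPKM in colitic Tmem173fl/fl colon, and at 27.2, 25.9 and 31.8 RPKM in untreated and 19.8, 27.3 and 19.1 RPKM in colitic Tmem173iΔmye colon. The colitic Tmem173fl/fl libraries were below the other 9, with a log2 fold change for DSS of -1.50 (SE 0.16, adjusted p = 6.87e-05, edgeR). In Tmem173iΔmye mice the groups overlapped and the value was -0.36 (SE 0.21, adjusted p = 0.455, edgeR), which was not called. Between the colitic genotypes Tnfrsf11a was called higher in Tmem173iΔmye mice, by 1.03 (SE 0.20, adjusted p = 0.0371, edgeR), and its interaction was 1.21 (SE 0.25, adjusted p = 0.0244, edgeR).

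**Figure D4:**
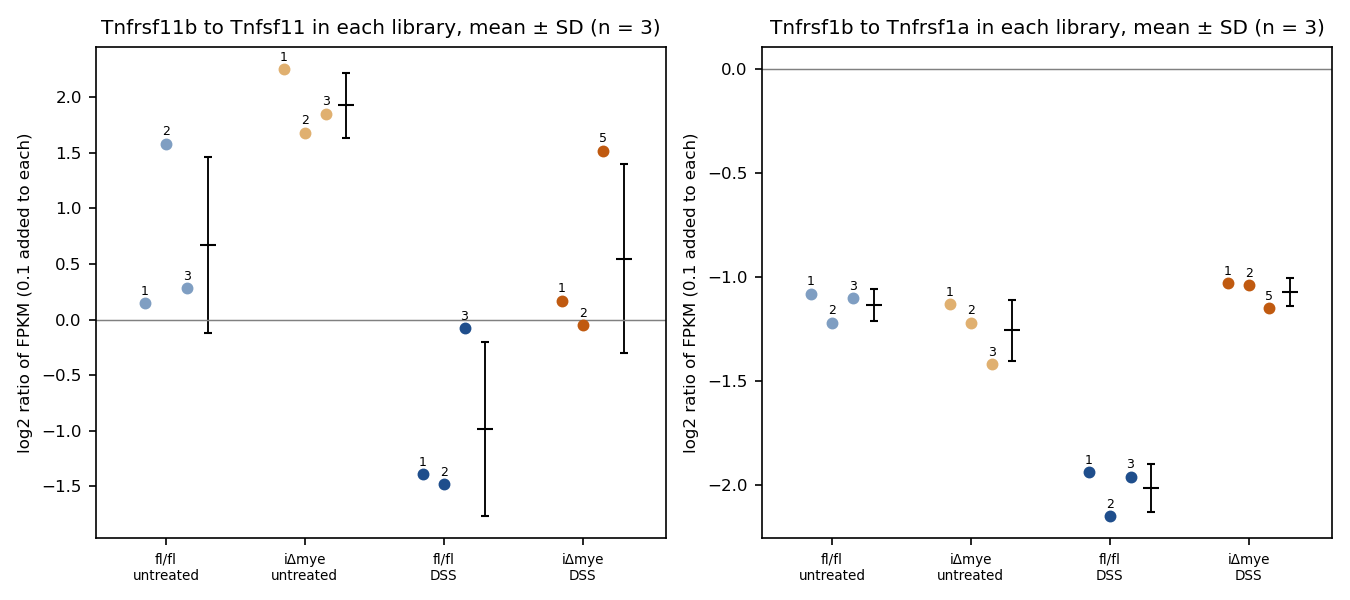
Log2 ratio of Tnfrsf11b to Tnfsf11 and of Tnfrsf1b to Tnfrsf1a (y axes, FPKM with 0.1 added to each) in each library by group, with bars for the mean ± SD (n = 3). The ratio of Tnfrsf1b to Tnfrsf1a was at -2.15 to -1.94 in colitic Tmem173fl/fl libraries, below the other 9, which lay between -1.42 and -1.03.

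Tnfsf13b (ENSMUSG00000031497, chr8:10006467-10039072, plus strand), which encodes BAFF, a survival factor of B cells, was even in untreated colon. It was at 2.03, 2.04 and 2.05 RPKM in untreated Tmem173fl/fl and at 1.94, 2.06 and 1.76 RPKM in untreated Tmem173iΔmye colon. In colitis it was at 2.52, 2.80 and 2.002 RPKM in Tmem173fl/fl replicates 1, 2 and 3 and at 5.53, 4.43 and 1.97 RPKM in Tmem173iΔmye replicates 1, 2 and 5. Replicates 1 and 2 of the colitic Tmem173iΔmye group were the highest of the 12 libraries and replicate 5 was at the untreated level. The log2 fold change for DSS was 0.33 (SE 0.18, adjusted p = 0.192, edgeR) in Tmem173fl/fl mice and 1.05 (SE 0.34, adjusted p = 0.163 in edgeR, with 0.0452 in DESeq2) in Tmem173iΔmye mice. Without replicate 5 the latter was 1.41 (adjusted p = 0.00318) and the interaction, 0.79 (SE 0.41, adjusted p = 0.329) over all libraries, was 1.10 (adjusted p = 0.0457). An antisense gene that overlaps Tnfsf13b, Gm44789, had at most 20 counts in a library, against 184 to 533 for Tnfsf13b.

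Tnfrsf1a (ENSMUSG00000030341, chr6:125349362-125362484, plus strand) encodes TNFR1, the widely expressed TNF receptor with a death domain, and rose in colitic Tmem173fl/fl colon with little spread. It was at 42.8, 41.2 and 39.7 RPKM in untreated Tmem173fl/fl and at 38.3, 38.5 and 50.8 RPKM in untreated Tmem173iΔmye colon. The colitic values were 95.4, 96.1 and 95.8 RPKM in Tmem173fl/fl replicates 1, 2 and 3 and at 78.4, 66.6 and 52.2 RPKM in Tmem173iΔmye replicates 1, 2 and 5. The colitic libraries of both genotypes lay above the untreated ones, and the colitic groups did not overlap. The rise in Tmem173fl/fl mice was 2.44-fold, a log2 fold change of 1.29 (SE 0.13, adjusted p = 4.80e-05, edgeR). In Tmem173iΔmye mice the value was 0.62 (SE 0.22, adjusted p = 0.199, edgeR). The colitic genotypes differed by -0.55 (SE 0.20, adjusted p = 0.172, edgeR), and the interaction was -0.59 (SE 0.24, adjusted p = 0.218, edgeR).

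Tnfrsf1b (ENSMUSG00000028599, chr4:145213463-145246870, minus strand) encodes TNFR2, which lacks a death domain and is found mainly on immune and endothelial cells. It was at 20.2, 17.7 and 18.5 RPKM in untreated Tmem173fl/fl and at 17.5, 16.5 and 18.9 RPKM in untreated Tmem173iΔmye colon. In colitis it was at 24.8, 21.6 and 24.6 RPKM in Tmem173fl/fl replicates 1, 2 and 3 and at 38.3, 32.4 and 23.4 RPKM in Tmem173iΔmye replicates 1, 2 and 5. The 6 colitic libraries lay above the 6 untreated ones. The log2 fold change for DSS was 0.40 (SE 0.13, adjusted p = 0.0307, edgeR) in Tmem173fl/fl mice, under the fold set for a call, and 0.83 (SE 0.22, adjusted p = 0.0876, edgeR) in Tmem173iΔmye mice, where it was 1.03 (adjusted p = 0.00743) without replicate 5. The log2 ratio of Tnfrsf1b to Tnfrsf1a was -1.13 ± 0.07 in untreated Tmem173fl/fl, -1.25 ± 0.15 in untreated Tmem173iΔmye, -2.01 ± 0.12 in colitic Tmem173fl/fl and -1.07 ± 0.07 in colitic Tmem173iΔmye colon (SD, n = 3). TNFR1 transcript thus outweighed TNFR2 transcript per length in each library, and most in colitic Tmem173fl/fl colon. The mean difference for DSS over both genotypes was -0.35 (exact two-sided permutation test within genotype, p = 0.095), which averages a lower mean ratio in Tmem173fl/fl and a higher one in Tmem173iΔmye mice and describes neither. In colitis the genotypes differed by 0.94 (exact p = 0.1, the smallest possible).

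The rest of the superfamily was counted from lists of 11 other ligands and 25 other receptors, each gene of which was tested. For DSS in Tmem173fl/fl mice, 3 other ligands rose, Eda by 3.02 on the log2 scale (SE 0.29), Tnfsf8 by 1.74 (SE 0.56) and Tnfsf12, which encodes TWEAK, by 1.71 (SE 0.24), and Tnfsf13, which encodes APRIL, changed by -1.42 (SE 0.31). Of the other receptors 7 rose, among them Tnfrsf9 (4-1BB) by 2.94 (SE 0.41), Relt by 2.05 (SE 0.41) and Tnfrsf23, a decoy-type TRAIL receptor of the mouse, by 1.97 (SE 0.33). The 2 that fell, Tnfrsf11a and the low Edar, were named after their values were seen. The shares of all tested genes called there were 14.9% higher and 7.61% lower. In Tmem173iΔmye mice edgeR called 0 of the 11 other ligands and 0 of the 25 other receptors for DSS, where 1.48% of all genes were called higher and 0.597% lower, so a count of 0 in lists of this size is near the background. At an unadjusted p under 0.05 there were 2 ligands and 6 receptors, which are not set against a background, as the number over all genes is not given here. DESeq2 called 1 and 2, against 1137 of the 24102 tested genes. Limma called 0 and 0 with either pseudocount, against 41 of all tested genes with 0.1 added and 74 with 1 added. Between the colitic genotypes Eda was lower in Tmem173iΔmye mice (-1.60, SE 0.34, adjusted p = 0.045, edgeR), and Tnfrsf8 (CD30) at 2.25 (SE 0.37, adjusted p = 0.0237, edgeR) and Tnfrsf11a were higher. The median log2 fold change of the other receptors was 0.38 for DSS in Tmem173fl/fl and 0.08 in Tmem173iΔmye mice.

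**Figure D5:**
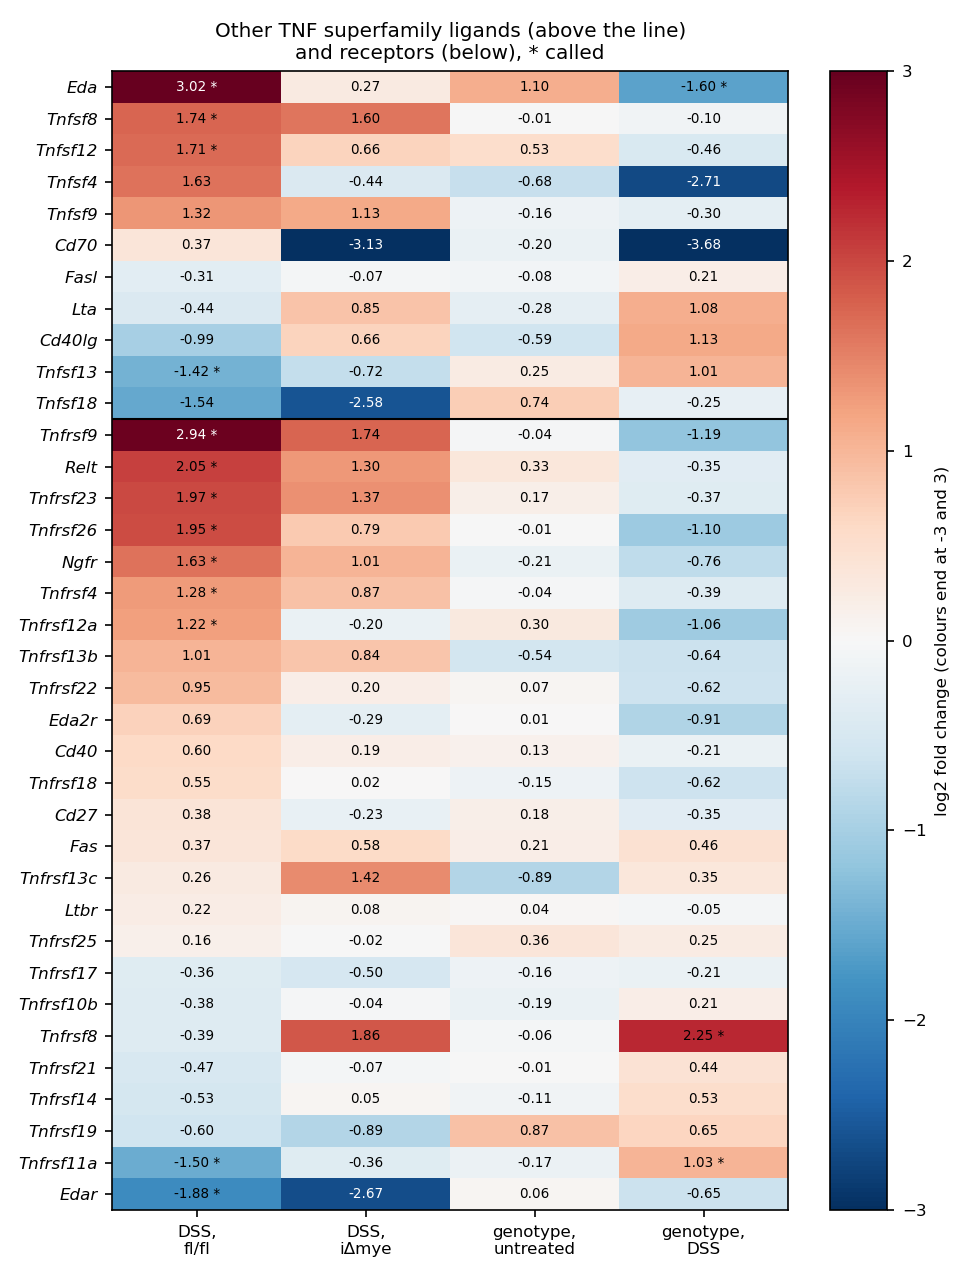
Log2 fold change (colour and printed value) of 11 other TNF superfamily ligands and 25 other receptors in 4 comparisons (columns), with an asterisk where the gene was called. The first column holds 3 ligands and 7 receptors called higher and 1 ligand and 2 receptors called lower, in a comparison in which 14.9% of all tested genes were called higher and 7.61% lower, against at most 1.99% in either direction in the other columns.

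Downstream of the receptors, most genes of a list that TNF can induce rose in colitic Tmem173fl/fl colon. For DSS in Tmem173fl/fl mice 13 of 14 such genes rose, where 14.9% of all tested genes were called higher and 7.61% lower, with Cxcl1, Cxcl2 and Cxcl5, neutrophil-attracting chemokines, at 7.96 (SE 0.44), 7.80 (SE 0.40) and 7.59 (SE 0.53) on the log2 scale. In Tmem173iΔmye mice 7 of 14 rose, against 1.48% of all genes, with Cxcl1 at 4.51 (SE 0.36). Between the colitic genotypes 5 of the 14, Ptgs2, Cxcl1, Cxcl2, Selp and Sod2, were lower in Tmem173iΔmye mice, by -1.08 to -3.23, against 1.99% of all genes. Summed neutrophil markers were at 565 to 930 RPKM in colitic Tmem173fl/fl against 236 to 326 RPKM in colitic Tmem173iΔmye libraries, and 5 of the 8 markers were called lower in Tmem173iΔmye mice. Ly6g, which made up most of the sum in colitic Tmem173iΔmye colon, was at 163.3 ± 69.1 RPKM in colitic Tmem173fl/fl and 197.1 ± 78.8 RPKM in colitic Tmem173iΔmye colon (SD, n = 3), whereas S100a9 was at 269 ± 69.5 and 34.7 ± 23.3 RPKM. In the same comparison 6 of 7 fibroblast, 2 of 6 endothelial and 2 of 10 monocyte and macrophage markers were called lower. Selp, one of the 5 induced genes, is itself made by endothelial cells and platelets. The part of these cells and of neutrophils in the levels of the induced genes was not tested. Of 10 brakes on TNF signalling 5 rose for DSS in Tmem173fl/fl mice (Tnfaip8l2, Tnip2, Nfkbie, Nfkbia and Zfp36), and between the colitic genotypes Tnip3 was 2.08 higher (SE 0.35, adjusted p = 0.0262, edgeR) in Tmem173iΔmye mice. Of 19 adaptors and kinases 1 rose, Map3k14, and 1 fell, Rnf31, which is no more than the shares over all genes, and of 5 genes of TNF shedding Timp3 and Rhbdf1 rose, for DSS in Tmem173fl/fl mice.

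The transcripts most alike to each of the 8 members with a mean FPKM of at least 1, which leaves out Tnfsf14 and Tnfsf15, over the 12 libraries were found among 14557 genes by Pearson's r of log2(CPM + 0.5). These values are descriptions, since the libraries share groups and treatments. For Tnf they were Zscan21 (r = 0.887), Adgrf1 (0.867) and Nos2 (0.866), and for Ltb Acap1 (0.971), Tbc1d10c (0.969) and Rasal3 (0.959). For Tnfsf10 they were Apol10b (0.979), Psmb9 (0.978) and Dtx3l (0.975), of which Psmb9, an immunoproteasome subunit, and Dtx3l are interferon-inducible. For Tnfsf11 they were Pdgfra (0.975), a fibroblast marker, Slc43a3 (0.973) and Serping1 (0.972). For Tnfsf13b they were Ankrd44 (0.946), Apba2 (0.882) and Tnfrsf1b (0.873), which is itself a member. For Tnfrsf1a they were Ptgir (0.988), Rtn4rl2 (0.987) and Cmklr1 (0.984), for Tnfrsf1b Ripk3 (0.958), Duox2 (0.948) and Thsd4 (0.944), and for Tnfrsf11b Enpep, Tead1 and Syt6 (0.970 each). Above an r of 0.9 there were 1018 genes for Tnfrsf1a, 636 for Tnfsf11, 512 for Tnfrsf11b and 116 for Tnfsf10, and 26, 14, 1 and 0 for Ltb, Tnfrsf1b, Tnfsf13b and Tnf.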

How the data were processed

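Colon RNA was sequenced in 12 libraries from polyA RNA with an NEBNext Ultra RNA kit. The submitters' processing notes name CASAVA 1.8, fastp, HISAT2 2.0.5, featureCounts 1.5.0-p3 and DESeq2 1.20.0 on GRCm38 (mm10). Whether strand was used in counting is not given in the sources used here. The authors deposited whole-number counts per gene and FPKM per library. The deposited FPKM equal counts per length and total times 1 constant per library (0.892 to 1.044). Columns of the authors' own comparisons (group means, log2 fold changes and p-values) were not used.

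RPKM were computed here from the deposited counts, the gene length and TMM scaling. Genes that reached an FPKM of 0.1 in 3 or more libraries (24102 of 54532) entered edgeR 4.0.16 (glmQLFit and glmQLFTest, R 4.3.3) on the groups compared, and on 12 libraries for the interaction. P-values were adjusted by Benjamini-Hochberg over all tested genes, and the SE is the size of the log2 fold change over the square root of F. The script was tested on simulated data. Promoter windows came from RefSeq. Results of some gene lists and cell type marker lists are not reported here. The members and the gene lists were chosen with earlier results of these data known. The text names the 10 members, up to 5 called genes per other list with the largest change and a mean FPKM of at least 0.5, and the 3 genes most alike to each member with a mean FPKM of at least 1. Alternatives were DESeq2 1.42.0, limma 3.58.1 on log2(FPKM + 0.1) or log2(FPKM + 1), other filters, thresholds and size factors, 1 fit of 12 libraries, a replicate block, sex and pancreas covariates and each library left out.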

Additional observations from a re-analysis of the deposited data

Results flagged for a closer look

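The DSS effect on Tnfsf10 differed between the genotypes by the interaction test, with a log2 fold change of 2.31 between the effects in Tmem173iΔmye and Tmem173fl/fl mice (SE 0.49, adjusted p = 0.0244, edgeR). The effect was -2.58 in Tmem173fl/fl mice, where 3 of 3 colitic libraries lay below the untreated ones, and -0.34 in Tmem173iΔmye mice, where the groups overlapped. The interaction no longer passed in 7 of the 12 fits with a library left out (adjusted p = 0.0505 to 0.075, edgeR) or with limma at a pseudocount of 0.1 (2.33, adjusted p = 0.0686).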

How the results depend on the processing

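The 5 calls for DSS in Tmem173fl/fl mice were kept under each of the 18 alternatives per gene, with 5 or 6 members called. The other counts rested on the processing. For DSS in Tmem173iΔmye mice 1 member was called, against 3 by unadjusted p, 2 with no filter, 3 with DESeq2, 0 with either limma pseudocount, 2 in 1 fit of 12 libraries, 2 with the sex covariate and 0 to 5 with a library left out. For the colitic genotypes 1 was called, against 3 by unadjusted p, 2 with no filter, 3 with DESeq2, 0 with either limma pseudocount, 3 in 1 fit of 12 libraries, 0 with the pancreas covariate and 0 to 1 with a library left out. Between the untreated genotypes 0 were called, against 1 by unadjusted p. For the interaction 1 was called, against 2 by unadjusted p, 2 with DESeq2, 0 with limma at a pseudocount of 0.1 and 0 to 2 with a library left out. The cause of these shifts was not tested. Of 945 values of members under alternatives, 895 kept their call, 22 lost it, 28 gained one and 0 called values changed sign. Libraries that share a replicate number deviated together at a correlation of -0.209 to 0.24. Libraries of unlike number were not compared in this way, so these values cannot decide whether the numbers pair libraries. With the replicate number as a block, 5, 4, 0, 2 and 1 members were called for DSS in Tmem173fl/fl, DSS in Tmem173iΔmye, the untreated genotypes, the colitic genotypes and the interaction. The block fit called 1369 genes in all for DSS in Tmem173iΔmye mice, against 501. For DSS in Tmem173iΔmye mice and the colitic genotypes, numbers 3 and 5 are held by 1 library each, as is number 5 in the interaction. The block fit in effect leaves such libraries out, so its calls there are not an adjustment for shared numbers alone. Without colitic Tmem173iΔmye replicate 5 and with no block, 5 members and 1469 genes were called for DSS in Tmem173iΔmye mice. Over all genes, limma at a pseudocount of 0.1 called 41 and DESeq2 1137 for DSS in Tmem173iΔmye mice, and 71 and 1619, against 678, between the colitic genotypes. DESeq2 called 1365, against 614, for the interaction. Limma at a pseudocount of 1 called 2838, against 5422, for DSS in Tmem173fl/fl mice. Tnfsf15 was not tested with an FPKM minimum of 1. Counts of 5 to 61 a library for Tnfsf11 outside colitic Tmem173fl/fl colon, and of 7 to 85 for Tnfsf14, limit their precision.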
